A study of Homo sapiens with 38 samples.

Results

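The comparison described here is that of neural progenitor cultures treated with IWP2 and untreated cultures at day 8 of neural induction. It rests on 4 of the 38 libraries of the series, 2 from IWP2 cultures and 2 from untreated cultures, chosen by their column names in the deposited expression table. All cells were of H9, a human embryonic stem cell line, with the wild-type genotype. The IWP2 cultures received IWP2 at 2.0 µM and no WNT activator, and the untreated cultures, which the labels also call CT0.0, received neither. The whole series holds 19 groups of 2 libraries each: undifferentiated cells at day 0, and 9 conditions at days 4 and 8. Beyond IWP2 and CT0.0, these conditions were CT, the activator of WNT signalling, at 0.4 to 4.0 µM, and CT at 4.0 µM with retinoic acid. The series text calls the 2 libraries of a group biological replicates but does not say that they came from separate differentiations. The p-values therefore measure only the spread between libraries of a group, pooled over the 19 groups. All cultures came from 1 cell line.

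WNT proteins are lipid-modified in the endoplasmic reticulum by the acyltransferase porcupine, encoded by PORCN, and are then carried to the cell surface by the cargo receptor WLS. IWP2 inhibits porcupine, so that cells exposed to it cannot release active WNT ligands, and cultures without added WNT activator depend on the ligands their own cells secrete. In the vertebrate neural plate, WNT signalling promotes caudal fates, and its inhibition at the rostral end is needed for the forebrain and the eye field. FGF8 is secreted from the anterior neural ridge at the rostral edge of the telencephalon, where it promotes rostral and limits caudal and dorsal telencephalic fates. EMX2 and the COUP-TF receptors NR2F1 and NR2F2 are known as caudally graded regulators of the cortical primordium that oppose FGF8. The series addressed how rostrocaudal identity is set in early neural cells, and the IWP2 condition was meant to give its most rostral end.

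The pan-neural progenitor markers were expressed in all 4 libraries. The 30 listed genes summed to 4259 and 4140 TPM (a length-normalised share of all transcripts) in the IWP2 libraries and to 4609 and 4323 TPM in the untreated libraries, and at most 1 of the 30 was under 1 TPM in any of them. Libraries of a group correlated at 0.9626 (IWP2) and 0.9577 (untreated) on the log2(TPM + 1) scale over the tested genes. Each untreated library correlated best with IWP2 replicate 2 (0.9584 and 0.9594), so on this measure the untreated libraries did not stand apart as a pair. Ribosomal protein genes took 17.1% and 17.8% of all TPM with IWP2 against 20.3% and 19.4% without, and mitochondrially encoded genes 8.5% and 8.28% against 7.8% and 8.24%. The part of these shares in the results was not tested. TPM values keep no read depth, so the depth of each library is unknown.

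Of 28221 tested genes, 55 rose and 65 fell with IWP2 at day 8 (0.425% called in either direction, 0.195% higher and 0.23% lower). A gene was called when its log2 fold change reached 1 in either direction and the Benjamini-Hochberg adjusted p was below 0.05 in limma, fitted to log2(TPM + 1) over all 38 libraries. The IWP2 and untreated libraries did not overlap in any of the 55 or the 65. The absence of overlap therefore adds nothing to a call, and its share over all tested genes was not counted. By unadjusted p alone, below 0.05, 1950 genes lay higher and 1150 lower, and the median log2 fold change of all tested genes was 0.02. Among protein-coding genes 31 rose and 35 fell, of 15533 tested (0.2% and 0.225%). The other called transcripts, 24 that rose and 30 that fell, were long noncoding RNAs, pseudogenes and small RNAs. Of the 24 that rose 12 were listed at 0 in both untreated libraries, and of the 30 that fell 24 were listed at 0 in both IWP2 libraries. Small RNAs are poorly captured by poly(A) selection, and none is named here.

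The calls lean on an error estimate shared by all 19 groups. With only the 4 libraries in the fit, 89 genes were called, of which 6 were among the 120. They included SIX6 (adjusted p = 0.0447). In that fit FGF8 had an adjusted p of 0.253, EMX2 of 0.235, NR2F1 of 0.225, SIX3 of 0.253 and DUSP6 of 0.344. The fold changes are the same in both fits.

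Transcription factors of the developing cortex were among the largest decreases. Of 23 tested genes on a list of telencephalic regulators, 5 fell, among them DMRTA1, OTX1, EMX2 and FEZF2, 1 rose (DLX5) and 17 were not called, with a list median of -0.01.

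**Figure D1:**
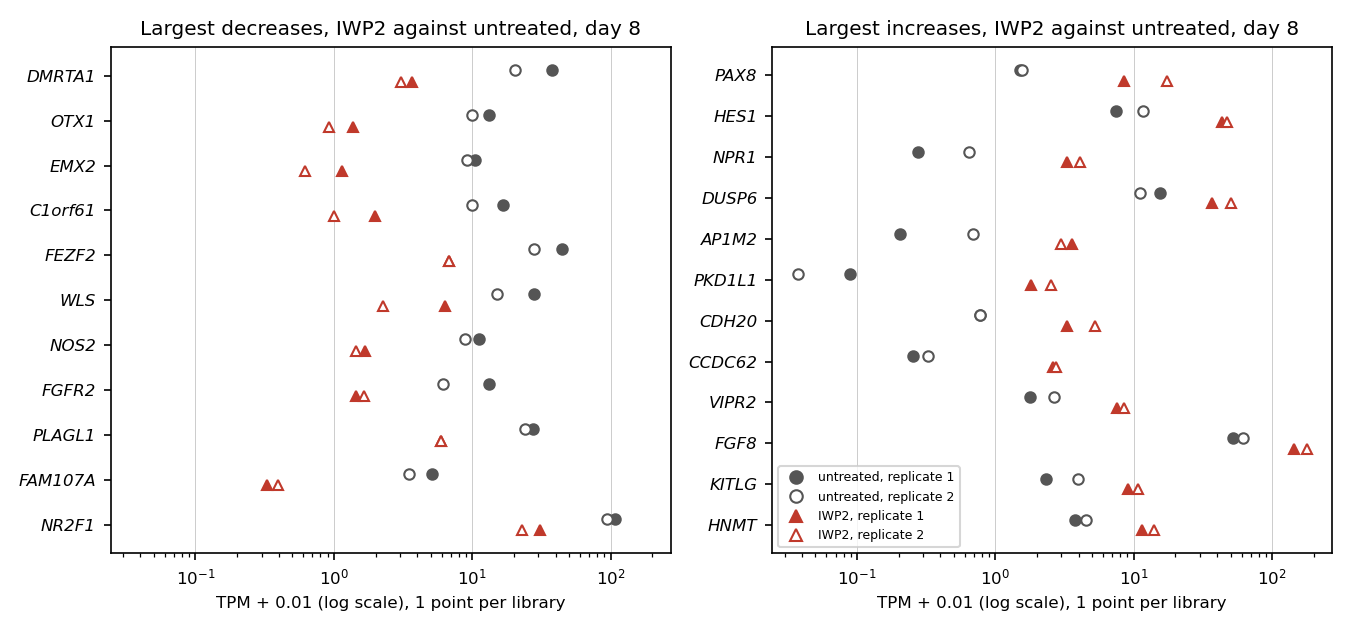
Expression at day 8 of 11 of the 12 protein-coding genes with the largest decreases (left) and of the 12 with the largest increases (right), as TPM + 0.01 on a log axis, with 1 point per library. The red triangles are IWP2 and the grey circles untreated libraries: DMRTA1, at the top left, lies at 3.06 and 3.64 TPM with IWP2 against 20.5 and 37.5 TPM, and PAX8, at the top right, at 8.54 and 17.4 TPM against 1.49 and 1.54 TPM.

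EMX2, a homeodomain factor of the caudal and medial cortical primordium (chr10:117542444-117549546, plus strand), was at 1.13 and 0.606 TPM with IWP2 and at 10.5 and 9.19 TPM without. The groups stood well apart, and the log2 fold change was -2.55 ± 0.24 (adjusted p = 1e-06).

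DMRTA1, a doublesex-related factor of cortical progenitors, was at 3.64 and 3.06 TPM with IWP2 against 37.5 and 20.5 TPM (log2 fold change -2.73 ± 0.25, adjusted p = 6.1e-07). OTX1, an orthodenticle homeobox factor of forebrain and midbrain, was at 1.36 and 0.908 TPM against 13.3 and 10 TPM (-2.56 ± 0.26, adjusted p = 3.7e-06). FEZF2, which specifies subcerebral projection neurons later in development, was at 6.82 and 6.77 TPM against 44.2 and 28.1 TPM (-2.22 ± 0.36, adjusted p = 0.0015). In each of these 3 genes the untreated replicate 1 was the higher of the untreated libraries, and both lay above the IWP2 libraries. DLX5, a homeobox gene of ventral telencephalon and of placodes, rose from 1.01 and 2.5 TPM to 3.92 and 4.93 TPM (1.03 ± 0.18, adjusted p = 0.00407). Without untreated replicate 1 its log2 fold change was 0.63 (adjusted p = 0.113).

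FEZF1, the rostral forebrain paralog of FEZF2 and an abundant uncalled member of the telencephalic list, was at 257 and 273 TPM with IWP2 against 193 and 165 TPM (0.57 ± 0.33, adjusted p = 0.561). It was higher in both IWP2 libraries, by less than the fit could separate from the spread between libraries pooled over all groups.

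The COUP-TF receptors fell together. NR2F1 (chr5:93583224-93594615, plus strand) was at 30.7 and 23.0 TPM with IWP2 and at 107 and 93.7 TPM without. The IWP2 libraries held 3.75-fold less by the ratio of means, and the log2 fold change was -1.88 ± 0.25 (adjusted p = 1.5e-04). With a pseudocount of 0.1 the NR2F1 call was lost (adjusted p = 0.195). NR2F2 (chr15:96325938-96340263, plus strand) was at 9.81 and 9.3 TPM against 29.6 and 24.8 TPM (-1.41 ± 0.21, adjusted p = 5.3e-04). Of the 7 listed receptors of this class, 2 fell and 5 were not called, with a list median of -0.25. Its most abundant uncalled members were NR6A1 (-0.25 ± 0.07, adjusted p = 0.0795) and NR2F6 (0.19 ± 0.10, adjusted p = 0.496).

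Genes of the eye field were among those that rose. Of 18 tested genes of the eye field and optic vesicle, 2 rose (SIX3 and SIX6), none fell and 16 were not called, with a list median of 0.07 and with 6 higher and 2 lower when the p was left unadjusted and taken below 0.05. SIX3, which represses WNT genes in the rostral neural plate (chr2:44941898-44946077, plus strand), was at 126 and 128 TPM with IWP2 and at 46.0 and 58.2 TPM without. The IWP2 libraries agreed closely and lay above both untreated ones, a log2 fold change of 1.28 ± 0.20 (adjusted p = 9.8e-04). The SIX3 call was lost with a pseudocount of 0.1 (adjusted p = 0.406).

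SIX6, a paralog of SIX3 in the retina and hypothalamus, was at 1.12 and 1.26 TPM with IWP2 and was listed at 0 in both untreated libraries (1.13 ± 0.15, adjusted p = 1.6e-04, on the log2(TPM + 1) scale). SIX3-AS1, a noncoding RNA that starts beside SIX3 on the opposite strand and is named here after its values were seen, was at 45.3 and 53.6 TPM against 6.21 and 10.8 TPM (2.44 ± 0.22, adjusted p = 5.8e-07). EMX2OS, which overlaps EMX2 on the opposite strand and is also named after its values were seen, was at 2.71 and 3.83 TPM against 17.2 and 9.52 TPM (-1.71 ± 0.39, adjusted p = 0.0373). The labels do not say whether the counting used strand, so reads of EMX2 and EMX2OS may not be told apart, and the EMX2OS call was lost without untreated replicate 1 (-1.31, adjusted p = 0.307), without IWP2 replicate 1 (-1.52) and without IWP2 replicate 2 (-1.90). RAX, the retinal homeobox gene, was at 40.9 and 46.9 TPM against 36.4 and 20.6 TPM and was not called (0.66 ± 0.21, adjusted p = 0.185). Without untreated replicate 1 RAX was called (1.05, adjusted p = 0.0189). PAX6, a forebrain and eye factor, was at 64 and 62.1 TPM against 126 and 95.1 TPM (-0.79 ± 0.16, adjusted p = 0.0199), under the fold threshold and in the opposite direction to SIX3. The most abundant uncalled members, the secreted WNT antagonists SFRP1 and SFRP2, were at log2 fold changes of 0.29 ± 0.10 (adjusted p = 0.247) and -0.52 ± 0.13 (adjusted p = 0.0741).

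FGF8 rose with IWP2, and so did DUSP6 and DUSP4, which are feedback inhibitors of the pathway that FGF8 activates. FGF8 (chr10:101770130-101780369, minus strand) was at 143 and 177 TPM with IWP2 and at 52.1 and 61.3 TPM without. Both IWP2 libraries held more than 2 times the level of either untreated library, and the log2 fold change was 1.48 ± 0.27 (adjusted p = 0.0046). The FGF8 call did not survive leaving out untreated replicate 1 (1.36, adjusted p = 0.0639) or IWP2 replicate 2 (1.33, adjusted p = 0.0724). Of 22 tested FGF ligands, receptors and binding partners, FGF8 rose, the receptor gene FGFR2 fell and 20 were not called, with a list median of 0.12.

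FGFR2, the FGF receptor that binds several FGF ligands according to its splice form (chr10:121478334-121598458, minus strand), was at 1.44 and 1.63 TPM with IWP2 and at 13.3 and 6.11 TPM without. The untreated libraries differed from each other by more than 2 times, yet both lay far above the IWP2 libraries (-2.00 ± 0.21, adjusted p = 4.8e-06). FGFR1, the most abundant receptor gene, was at 338 and 293 TPM against 333 and 274 TPM (0.06 ± 0.12, adjusted p = 0.962, 95% interval -0.19 to 0.31). FGFBP3, a secreted FGF-binding protein, was at 229 and 232 TPM against 127 and 135 TPM (0.82 ± 0.18, adjusted p = 0.0285), under the fold threshold. FGFR3, another receptor gene, was at 26.8 and 22.9 TPM against 14.1 and 15.6 TPM (0.71 ± 0.21, adjusted p = 0.137).

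Of 24 genes induced by FGF and ERK signalling, 2 rose (DUSP6 and DUSP4), none fell and 22 were not called. The list median was 0.33 against 0.02 for all tested genes, and 11 of the 24 lay higher and 1 lower with an unadjusted p below 0.05. DUSP6, a phosphatase that inactivates ERK (chr12:89347232-89353271, minus strand), was at 36.5 and 50.5 TPM with IWP2 and at 15.5 and 11.1 TPM without (1.64 ± 0.29, adjusted p = 0.00443). Both IWP2 libraries were above both untreated ones, but the DUSP6 call was lost without untreated replicate 2 (1.42, adjusted p = 0.0645) and without IWP2 replicate 2 (1.41, adjusted p = 0.0823). DUSP4, a nuclear ERK phosphatase, was at 31.5 and 33.3 TPM against 12.8 and 16 TPM (1.12 ± 0.16, adjusted p = 4.1e-04). Without untreated replicate 1 its log2 fold change was 0.98, just under the threshold.

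The promoter of DUSP6 is shown because DUSP6 is the called feedback gene with the largest increase for which a promoter was at hand. It is given from 250 bases before to 50 bases after the start site, from RefSeq on GRCh38.p14, chr12:89352452-89352751, minus strand, 5′ to 3′. None of the 4 motifs searched on both strands (CTTTGAA and CTTTGTT of TCF factors, CCGGAAG of ETS factors and AGGTCA, which nuclear receptors bind) is in this window, so it holds no capitals. Of all 35116 promoters of this length, 10.3% hold CCGGAAG and 13.8% hold AGGTCA.
DUSP6: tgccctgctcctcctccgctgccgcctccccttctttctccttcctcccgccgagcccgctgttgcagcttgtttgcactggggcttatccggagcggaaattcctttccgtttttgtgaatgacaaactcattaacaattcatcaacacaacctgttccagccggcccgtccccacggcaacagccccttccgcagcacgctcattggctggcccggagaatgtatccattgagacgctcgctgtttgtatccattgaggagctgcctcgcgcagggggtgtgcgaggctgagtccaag

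The Sprouty genes, which encode feedback inhibitors of receptor tyrosine kinase signalling, were higher in both IWP2 libraries without being called. SPRY1 was at 132 and 146 TPM against 77.5 and 78.6 TPM (0.82 ± 0.16, adjusted p = 0.00843). SPRY2 was at 94.9 and 106 TPM against 58.5 and 59.0 TPM (0.76 ± 0.17, adjusted p = 0.0306). SPRY4 was at 50 and 45.1 TPM against 16.8 and 24.1 TPM (1.20 ± 0.31, adjusted p = 0.0795), and it was called when only protein-coding genes were tested (adjusted p = 0.0444). The FGF-responsive ETS factors ETV4 and ETV5 were at 0.70 ± 0.19 (adjusted p = 0.088) and 0.72 ± 0.31 (adjusted p = 0.374). IL17RD, a membrane inhibitor of FGF receptors, was at 1.00 ± 0.28 (adjusted p = 0.104), and CCND1, the most abundant uncalled member after SPRY1, at -0.12 ± 0.15 (adjusted p = 0.874). SPRY2, SPRY4, the ETS factors, IL17RD and FGFR3 are named after their values were seen.

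**Figure D2:**
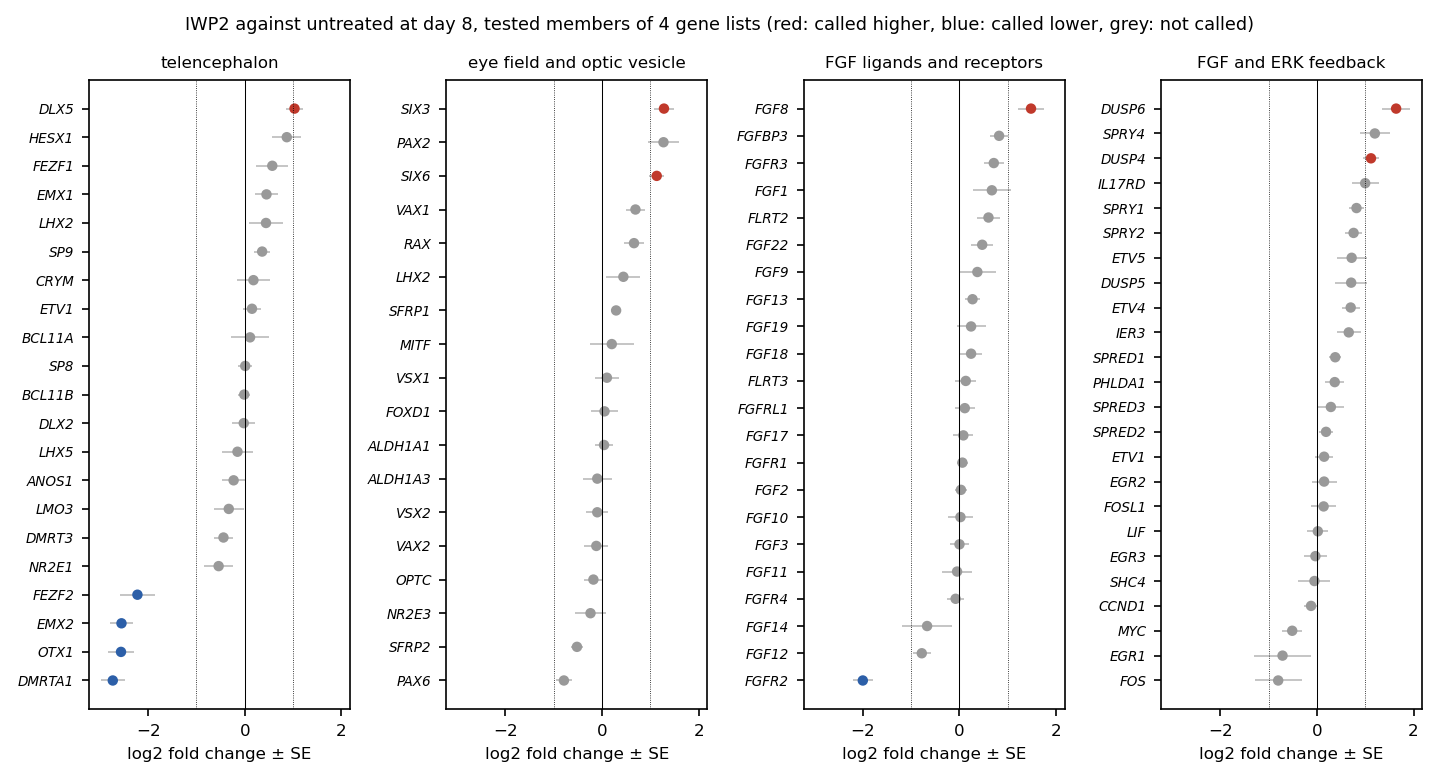
Log2 fold change (± SE) of IWP2 against untreated at day 8 for the tested members of 4 gene lists (21 of the 23 telencephalic genes are drawn), with dotted lines at the fold threshold of 1. Telencephalic genes split between 4 drawn ones that fell and a group near 0, and most of the 24 FGF and ERK feedback genes lie right of 0.

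The genes of the WNT pathway itself showed few calls. Of 23 tested genes of WNT secretion and reception, WLS fell, none rose and 22 were not called (median -0.03). WLS (chr1:68098473-68233120, minus strand) was at 6.31 and 2.26 TPM with IWP2 and at 27.8 and 15.1 TPM without. The libraries within each group differed from each other, IWP2 replicate 2 and untreated replicate 2 being the lower ones, but the groups did not overlap (-2.14 ± 0.28, adjusted p = 1.6e-04). PORCN, the target of IWP2, was at 12.8 and 15.4 TPM against 16.1 and 13.7 TPM (-0.08 ± 0.14, adjusted p = 0.946), with groups that overlapped. The frizzled receptor genes split: FZD5 was at 328 and 341 TPM against 174 and 200 TPM (0.84 ± 0.16, adjusted p = 0.00749), FZD8 at 0.77 ± 0.14 (adjusted p = 0.00384), FZD7 at -0.66 ± 0.14 (adjusted p = 0.0293) and FZD2 at -0.23 ± 0.12 (adjusted p = 0.471), none past the fold threshold.

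None of 14 tested WNT ligand genes was called at day 8. WNT5B and WNT7B, the most abundant, were at -0.17 ± 0.22 (adjusted p = 0.886) and -0.47 ± 0.23 (adjusted p = 0.481). WNT8B, which the series title names as repressed by SOX21, was at 0.0416 and 0.21 TPM with IWP2 and at 1.6 and 0.317 TPM without (-0.72 ± 0.27, adjusted p = 0.305). The untreated libraries differed widely from each other, and without untreated replicate 2 WNT8B was called (-1.21, adjusted p = 0.0469). SOX21 was at 89.8 and 87.6 TPM against 129 and 100 TPM (-0.35 ± 0.26, adjusted p = 0.683).

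No gene of 25 tested canonical WNT targets and TCF factors was called (median -0.03, with 0 higher and 4 lower where the unadjusted p was below 0.05). AXIN2, a negative regulator that WNT signalling induces in most tissues, was at 9.64 and 11.5 TPM with IWP2 and at 21.1 and 11.6 TPM without (-0.53 ± 0.24, adjusted p = 0.414). Untreated replicate 1 was well above the IWP2 libraries, and untreated replicate 2 was close to IWP2 replicate 2. LEF1, another common target, was at 25.3 and 18.5 TPM against 27.4 and 27.8 TPM (-0.34 ± 0.15, adjusted p = 0.412). The most abundant members of the list were CCND1 and SP8, a zinc finger factor, the latter at 0.01 ± 0.15 (adjusted p = 1.0). None of 15 secreted WNT antagonists was called (median 0.14).

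Genes of neural progenitors were divided. Of 30 tested pan-neural genes, 1 rose (HES1), 3 fell (POU3F2, PLAGL1 and POU3F1) and 26 were not called, with a list median of -0.25. HES1, a NOTCH effector that represses proneural genes (chr3:194136145-194138732, plus strand), was at 43.1 and 47.1 TPM with IWP2 and at 7.4 and 11.7 TPM without. The groups stood far apart, with a log2 fold change of 2.16 ± 0.22 (adjusted p = 4.6e-06). POU3F2, a POU factor of neural progenitors and upper-layer neurons, was at 7.32 and 7.27 TPM against 27.4 and 21.9 TPM (-1.62 ± 0.13, adjusted p = 8.4e-08). PLAGL1, an imprinted zinc finger gene, was at 5.91 and 5.95 TPM against 27.6 and 23.9 TPM (-1.95 ± 0.19, adjusted p = 2.3e-06). POU3F1, the paralog of POU3F2, was at 21.5 and 18.0 TPM against 49.5 and 39.0 TPM (-1.12 ± 0.19, adjusted p = 0.00201).

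In all 3 of these POU and PLAGL1 genes the IWP2 libraries lay below both untreated ones, as in all 65 genes called lower. The POU3F1 call was lost without untreated replicate 1 (-0.95, adjusted p = 0.0513) and without IWP2 replicate 2, where the log2 fold change fell just short of 1 in size. VIM and LIN28A, the most abundant uncalled genes of the list, were at -0.05 ± 0.13 (adjusted p = 1.0) and 0.02 ± 0.06 (adjusted p = 0.979). SOX2, which marks neural progenitors throughout the neural tube, was at 395 and 399 TPM against 414 and 386 TPM, with groups that overlapped (-0.01 ± 0.10, adjusted p = 1.0, 95% interval -0.22 to 0.20). OTX2, a forebrain and midbrain factor, was at 241 and 226 TPM against 287 and 254 TPM (-0.21 ± 0.27, adjusted p = 0.873).

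HES1 was the only called gene of 23 tested members of the NOTCH pathway (median 0.02). LFNG, a glycosyltransferase that tunes NOTCH to its ligands, was at 131 and 123 TPM with IWP2 and at 275 and 234 TPM without. Its log2 fold change of -1.0 ± 0.16 (adjusted p = 0.00188) was just short of the threshold, and it passed with TMM scaling (-1.05). HES4 was at -0.41 ± 0.33 (adjusted p = 0.731). Named after their values were seen, the NOTCH effector HES5 was at 87.8 and 77.9 TPM against 156 and 157 TPM (-0.91 ± 0.33, adjusted p = 0.258), and the ligand JAG1 at 58.8 and 53.4 TPM against 111 and 91.6 TPM (-0.84 ± 0.20, adjusted p = 0.0561). HES1 and these NOTCH genes therefore had opposite signs. HES7, a relative of HES1 that is not on the list, rose from 0.154 and 0.0467 TPM to 2.22 and 1.13 TPM (1.25 ± 0.29, adjusted p = 0.0447), a call that was lost without any 1 of 3 of the 4 libraries (without untreated replicate 1, 1.32, adjusted p = 0.137; without untreated replicate 2, 1.18, adjusted p = 0.173; without IWP2 replicate 1, 0.96, adjusted p = 0.352).

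Of 19 tested genes of the midbrain and isthmus, 2 rose (PAX8 and FGF8) and 17 were not called (median 0.05). With an unadjusted p below 0.05, 6 of the 19 lay higher and none lower, against 1950 higher and 1150 lower of all 28221 tested genes. FGF8, FGF17, FGF18, SPRY1 and SPRY2 are also on the FGF lists above, so this count is not separate from theirs. PAX8, a paired box factor of the isthmus and of otic and kidney primordia, was at 8.54 and 17.4 TPM with IWP2 and at 1.49 and 1.54 TPM without (2.40 ± 0.32, adjusted p = 1.6e-04). IWP2 replicate 2 was much the higher of the IWP2 libraries, yet both were well above the untreated libraries. Of the uncalled genes, EN1 and EN2 stayed near 0: EN1 was at 0.0283 and 0.0285 TPM with IWP2 and at 0.0282 and 0 TPM without, and EN2 was under 0.05 TPM in all 4 libraries. None of 20 diencephalic genes (median 0.02) and none of 19 hindbrain and spinal cord genes (median 0.00) was called. Abundant members were LHX2 at 0.44 ± 0.35 (adjusted p = 0.72) and TCF7L2 at 0.27 ± 0.23 (adjusted p = 0.746) in the first list, and GBX2 at 0.26 ± 0.23 (adjusted p = 0.753) in the second.

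Of 24 genes of the cortical hem, roof plate and dorsal midline, 1 rose, ZIC5, a zinc finger factor of the dorsal neural tube, from 10.7 and 9.21 TPM to 19.9 and 25.1 TPM (1.10 ± 0.21, adjusted p = 0.00853). Its call was lost without untreated replicate 2 (adjusted p = 0.0799) and without IWP2 replicate 2 (0.94, adjusted p = 0.126). ZIC2, its neighbour on chromosome 13, was at 0.58 ± 0.19 (adjusted p = 0.188) and ZIC1 at 0.41 ± 0.43 (adjusted p = 0.812). Of 13 hypothalamic and ventral forebrain genes, SIX6 rose and 12 were not called (median 0.04), among them PTCH1, a receptor and target of hedgehog signalling, at -0.15 ± 0.27 (adjusted p = 0.948).

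Among secreted, adhesion and metabolic genes the calls were scattered. CDH20, a type II cadherin, was at 3.29 and 5.27 TPM with IWP2 and at 0.764 and 0.769 TPM without (1.55 ± 0.19, adjusted p = 7.1e-05). PCDH19, a protocadherin encoded on the X chromosome, was at 2.63 and 2.15 TPM against 7.87 and 6.25 TPM (-1.24 ± 0.21, adjusted p = 0.00201). These were the 2 calls among 29 adhesion and boundary genes, whose median was -0.04. The abundant cadherin genes CDH2 and CDH11 were at -0.27 ± 0.06 (adjusted p = 0.0395) and 0.25 ± 0.29 (adjusted p = 0.85).

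Of 15 tested genes of retinoid metabolism 1 rose, none fell and 14 were not called (median 0.04). On that list CRABP2 and CRABP1, the cellular retinoic acid-binding proteins, were not called, at 0.58 ± 0.13 (adjusted p = 0.0248) and -0.12 ± 0.45 (adjusted p = 1.0). GREM1, a secreted BMP antagonist, was at 2.33 and 2.86 TPM against 0.685 and 0.746 TPM (1.06 ± 0.18, adjusted p = 0.00201), the 1 call of 22 BMP and TGFB pathway genes (median 0.03). Without IWP2 replicate 2 its log2 fold change was 0.96. On the BMP and TGFB list ID2 and ID4, inhibitors of basic helix-loop-helix factors, lay on opposite sides at 0.76 ± 0.19 (adjusted p = 0.07) and -1.01 ± 0.31 (adjusted p = 0.159).

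Of 20 cholesterol synthesis genes none rose, 1 fell and 19 were not called at day 8. The list median was 0.27, and 12 genes lay higher and 1 lower with an unadjusted p below 0.05, so the call was against the sign of most of the list. At day 4 none rose and 1 fell, with a median of -0.72 and 17 lower and none higher by unadjusted p. The difference between the days was called for 8 of the 20, all with the higher value at day 8 (0.23% of all tested genes were called for that difference). The abundant enzymes HMGCS1 and FDFT1 were at 0.55 ± 0.14 (adjusted p = 0.066) and 0.39 ± 0.07 (adjusted p = 0.00749), under the fold threshold.

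The remaining genes among the 12 largest increases were NPR1, a natriuretic peptide receptor (1.7 ± 0.19, adjusted p = 1.8e-05), AP1M2, an epithelial clathrin adaptor subunit (1.58 ± 0.30, adjusted p = 0.00744), PKD1L1, a polycystin-family gene (1.58 ± 0.27, adjusted p = 0.00259), and CCDC62, a coiled-coil gene (1.51 ± 0.26, adjusted p = 0.00349). They were followed by VIPR2, a receptor for vasoactive intestinal peptide (1.51 ± 0.23, adjusted p = 8.4e-04), KITLG, the ligand of the KIT receptor (1.42 ± 0.27, adjusted p = 0.00843), and HNMT, a histamine-inactivating enzyme (1.40 ± 0.32, adjusted p = 0.0373). All 7 were under 15 TPM in every library. HNMT lost its call without any 1 of the 4 libraries, with adjusted p from 0.083 to 0.214, AP1M2 without untreated replicate 1 (adjusted p = 0.117) or IWP2 replicate 1 (0.0837), KITLG without untreated replicate 1 (0.15) or IWP2 replicate 2 (0.0949), and PKD1L1 without IWP2 replicate 2 (0.0504).

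More abundant genes also rose, and these are named after their values were seen. FBLN1, an extracellular matrix fibulin, was at 338 and 365 TPM against 119 and 175 TPM (1.28 ± 0.26, adjusted p = 0.0171), but its call was lost without untreated replicate 1 (1.00, adjusted p = 0.212), IWP2 replicate 1 (1.33, adjusted p = 0.0791) or IWP2 replicate 2 (1.23, adjusted p = 0.114). PTN, the secreted growth factor pleiotrophin, was at 308 and 385 TPM against 150 and 163 TPM (1.13 ± 0.13, adjusted p = 2.1e-05), and at 0.97 without IWP2 replicate 2. LTBP1, which binds latent TGFB, was at 218 TPM in both IWP2 libraries against 94.1 and 103 TPM (1.14 ± 0.14, adjusted p = 7.1e-05). ENC1, an actin-binding protein of the early neural plate, was at 173 and 178 TPM against 70.6 and 80.8 TPM (1.21 ± 0.16, adjusted p = 2.2e-04). In these 4 genes the lowest IWP2 library exceeded the highest untreated one, as in all 55 genes called higher.

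The remaining genes among the 12 largest decreases were C1orf61 (1.97 and 0.995 TPM against 16.7 and 10 TPM, -2.52 ± 0.37, adjusted p = 4.8e-04), NOS2, the inducible nitric oxide synthase (1.68 and 1.43 TPM against 11.1 and 8.89 TPM, -2.10 ± 0.26, adjusted p = 6.4e-05), and FAM107A, an actin-associated gene of radial glia (0.318 and 0.386 TPM against 5.09 and 3.47 TPM, -1.95 ± 0.26, adjusted p = 1.6e-04). Each was high in both untreated libraries and low in both IWP2 libraries. Named after their values were seen, CACHD1, a transmembrane protein related to calcium channel subunits, fell from 50.8 and 38.4 TPM to 17.9 and 15.3 TPM (-1.37 ± 0.09, adjusted p = 5.9e-09). The X-linked armadillo-repeat genes ARMCX2 and ARMCX6 fell from 394 and 281 TPM to 144 and 130 TPM (-1.27 ± 0.17, adjusted p = 1.6e-04) and from 103 and 92 TPM to 47.2 and 49.1 TPM (-1.0 ± 0.07, adjusted p = 6.7e-09). ARMCX6 lay at the fold threshold, and without untreated replicate 1 or IWP2 replicate 1 its log2 fold change was -0.92 or -0.98.

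Markers of other cell types gave few calls. None of 18 genes of neurons, 16 of neural crest, 10 of mesoderm, 5 of endoderm, 20 of pluripotency, 18 of proliferation, 20 of stress and p53 response or 16 of hypoxia and glycolysis was called. On the stress list 8 genes lay higher and none lower with an unadjusted p below 0.05 (median 0.23), and on the hypoxia list 5 and none (median 0.19). Of 15 placode and surface ectoderm genes, DLX5 was called. The summed TPM of the 20 placode and surface ectoderm genes was 311 and 304 with IWP2 against 241 and 222 without, most of it in the keratins KRT8 (157 and 150 against 118 and 112 TPM, 0.41 ± 0.16, adjusted p = 0.325) and KRT18 (97.7 and 95.6 against 55.1 and 59.7 TPM, 0.74 ± 0.20, adjusted p = 0.0846). The part of these in the results was not tested.

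The summed level of the 20 neuronal genes was 531 and 536 TPM against 427 and 420 TPM, with TUBB3 at 0.33 ± 0.17 (adjusted p = 0.518) and MAP2 at 0.39 ± 0.14 (adjusted p = 0.255), while 11 of the 20 were under 1 TPM in each library. Neural crest genes summed to 96 and 88.3 against 95.7 and 96.7 TPM, with FOXD3 listed at 0 in all 4 libraries, NGFR at -0.21 ± 0.21 (adjusted p = 0.798) and B3GAT1 at 0.06 ± 0.15 (adjusted p = 0.999). Mesodermal genes summed to 68.0 and 64.7 against 89.3 and 75.5 TPM, with ACTA2 at -0.41 ± 0.15 (adjusted p = 0.269) and COL1A1 at 0.21 ± 0.37 (adjusted p = 0.945). Endodermal genes summed to 22.4 and 25.9 against 32.4 and 31.1 TPM, with CXCR4 at -0.48 ± 0.18 (adjusted p = 0.317) and AFP at 0.47 ± 0.31 (adjusted p = 0.63). The pluripotency genes POU5F1 and NANOG were at no more than 1.27 and 0.236 TPM in any of the 4 libraries, and DPPA4 was at 0.19 ± 0.08 (adjusted p = 0.381).

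The most abundant members of the other uncalled lists had small differences: CCNB1 0.21 ± 0.06 (adjusted p = 0.12) and PCNA 0.19 ± 0.07 (adjusted p = 0.239) for proliferation, ATF4 0.28 ± 0.08 (adjusted p = 0.134) and HSPA5 0.37 ± 0.11 (adjusted p = 0.164) for stress, and ENO1 0.18 ± 0.07 (adjusted p = 0.297) and SLC2A1 -0.11 ± 0.20 (adjusted p = 0.95) for hypoxia and glycolysis. Of 7 tested long noncoding RNAs of nuclear retention and RNA quality none was called, with MALAT1 at 0.39 ± 0.17 (adjusted p = 0.402) and GAS5 at -0.02 ± 0.08 (adjusted p = 1.0). In these bulk cultures, fewer cells that express a gene and less RNA per cell cannot be told apart.

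The same contrast at day 4, with IWP2 and untreated libraries of its own, gave 80 called genes (0.283%; 45 higher and 35 lower, median log2 fold change of all genes 0.00). Higher genes made up 56.2% of these calls, against 41.9% with TMM scaling, which rescales libraries by a trimmed mean of gene ratios, and 44.3% with a pseudocount of 0.1. Of the 35 protein-coding genes that fell at day 8, 8 also fell at day 4 (DBX1, DMRTA1, NR2F1, NR2F2, OTX1, POU3F2, PTX3 and WLS) and 30 had the same sign, with a median of -0.46 at day 4 and -1.62 at day 8. PTX3, a secreted pentraxin, was at 14.4 and 12.4 TPM with IWP2 against 32.1 and 35.3 TPM at day 8 (-1.27). Of the 31 that rose at day 8, SIX6 also rose at day 4 and 23 had the same sign, with medians of 0.35 and 1.28. Of all tested genes 0.124% fell and 0.159% rose at day 4. The share of all tested genes with the same sign on both days was not counted. The medians at day 8 are fixed in part by the calling threshold, and no test was made on them. Across these 66 genes the log2 fold changes of the 2 days correlated at 0.565 (Pearson, across genes, which are not independent replicates). These genes were chosen for large changes at day 8, and over all 28221 tested genes the correlation was 0.0303.

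The genes that were lower on both days included both COUP-TF receptors and WLS. NR2F1 was at 4.74 and 4.7 TPM with IWP2 and at 18.5 and 22.1 TPM without at day 4 (-1.89, adjusted p = 2.1e-04), close to its day 8 value of -1.88. NR2F2 was at 19.9 and 12.2 TPM against 42.7 and 36.5 TPM (-1.29, adjusted p = 0.0026). WLS was at 21.7 and 12.5 TPM against 78.0 and 56.8 TPM (-1.95, adjusted p = 7.4e-04). For none of these 3 was the difference between the days called (adjusted p = 1.0 for NR2F1, 0.952 for NR2F2 and 0.939 for WLS). SIX6 was at 11.8 and 14.8 TPM against 2.95 and 4.58 TPM at day 4 (1.60, adjusted p = 4.5e-06), so its level was lower in all 4 libraries of day 8 than in any of day 4.

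DBX1, a homeobox gene of the ventral pallium, hypothalamus and hindbrain, was at 3.2 and 2.86 TPM with IWP2 against 18.2 and 15.5 TPM at day 4 (-2.15, adjusted p = 0.00557). At day 8 it was at 0.935 and 0.498 TPM against 6.76 and 3.95 TPM (-1.86 ± 0.38, adjusted p = 0.0135), a call that was lost without untreated replicate 1 (adjusted p = 0.168) or IWP2 replicate 2 (adjusted p = 0.13). Its promoter is shown, chosen after the values were seen, because it is the called gene whose window holds the most TCF motif matches. Capitals mark CTTTGTT at 208 and 91 bases before the start site and, on the opposite strand, CTTTGAA (printed as its reverse complement) at 58 bases before it. The window is chr11:20160426-20160725, minus strand, of GRCh38.p14 from RefSeq.
DBX1: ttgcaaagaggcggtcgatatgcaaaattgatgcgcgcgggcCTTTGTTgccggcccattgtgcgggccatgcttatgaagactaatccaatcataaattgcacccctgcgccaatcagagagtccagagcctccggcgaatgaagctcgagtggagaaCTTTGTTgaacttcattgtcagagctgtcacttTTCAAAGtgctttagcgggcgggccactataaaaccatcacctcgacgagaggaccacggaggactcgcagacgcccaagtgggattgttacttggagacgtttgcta

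A match is a description of these letters and not a binding site. CTTTGAA is in 4.43% and CTTTGTT in 5.2% of the 35116 promoters of the same length. Of the 35 protein-coding genes that fell, 25 had a promoter window, of which 1 held CTTTGAA (DBX1) and 2 held CTTTGTT (DBX1 and ABCG2, a transporter gene at -1.73 whose call was lost without untreated replicate 1 or IWP2 replicate 2), and none held CCGGAAG or AGGTCA. Of the 31 that rose, 23 had a window, of which none held a TCF motif, 1 held CCGGAAG (KITLG) and 1 held AGGTCA (GREM1). Promoters of FGF8 and SIX3 were not among those matched.

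**Figure D3:**
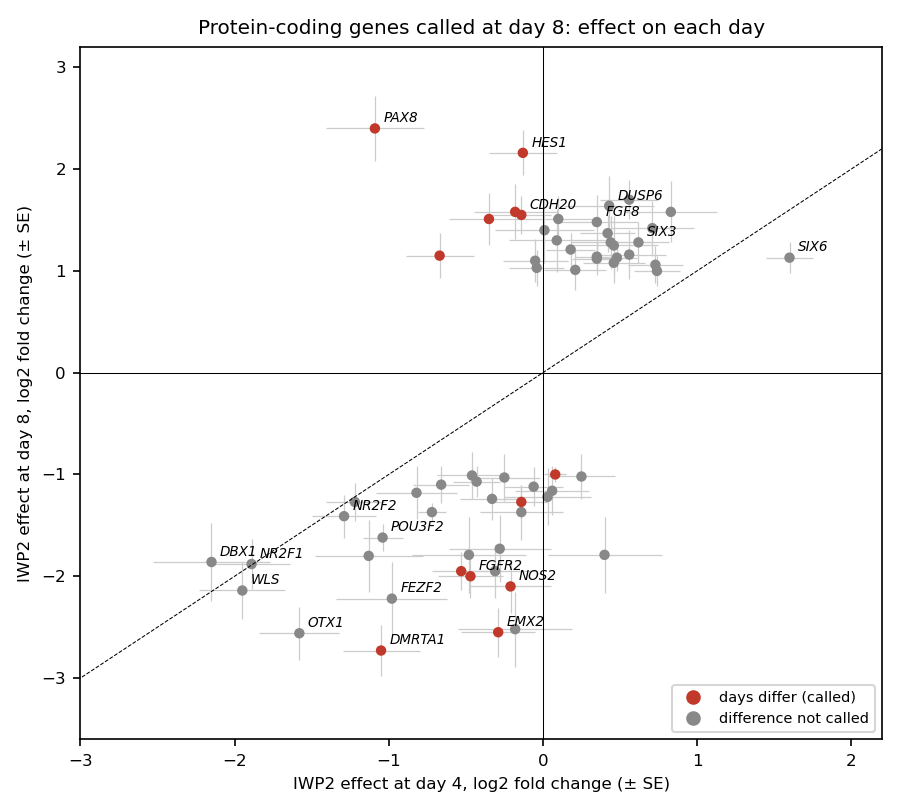
Log2 fold change of IWP2 against untreated at day 4 (x axis) and day 8 (y axis), each ± SE, for 63 of the 66 protein-coding genes called at day 8, with a dashed line where both are equal. The red points are the 13 drawn genes whose effect differed between the days by the interaction test, with PAX8 in the upper left, while NR2F1 and WLS lie near the dashed line.

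The difference between the day 8 and day 4 effects was called for 65 genes (0.23%; 35 with a higher and 30 with a lower value at day 8). They included 15 of the 66 protein-coding genes called at day 8. EMX2 was under 1 TPM in both conditions at day 4 (0.162 and 0.412 TPM with IWP2, 0.663 and 0.466 TPM without) and was high at day 8 in the untreated libraries only, a difference of -2.26 ± 0.34 (adjusted p = 0.00131). DMRTA1 was at 0.11 and 0.155 TPM against 1.29 and 1.41 TPM at day 4, where it already fell (-1.05, adjusted p = 0.0493), with a further -1.68 ± 0.35 by day 8 (adjusted p = 0.0344).

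FGFR2 followed another course. At day 4 it was at 54.9 and 48.0 TPM with IWP2 and at 69.8 and 73.0 TPM without (-0.47, adjusted p = 0.375), so its level was lower at day 8 in both conditions, and further lower with IWP2 (difference -1.53 ± 0.30, adjusted p = 0.0196). HES1 was at 44.7 and 48.0 TPM with IWP2 and at 44.6 and 57.9 TPM without at day 4 (-0.13, adjusted p = 0.934). At day 8 the IWP2 libraries were still between 43.1 and 47.1 TPM, whereas the untreated libraries were at 7.4 and 11.7 TPM. The effect thus differed by 2.29 ± 0.32 (adjusted p = 5.3e-04). PAX8 was lower with IWP2 at day 4 (0.837 and 1.16 TPM against 3.66 and 2.86 TPM, -1.09, adjusted p = 0.129, not called) and higher at day 8, a difference of 3.49 ± 0.45 (adjusted p = 2.3e-04).

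For FGF8 the day 4 values were 50 and 56.9 TPM with IWP2 against 42.2 and 40.9 TPM (0.35, adjusted p = 0.674), and for SIX3 157 and 156 TPM against 93.2 and 110 TPM (0.62, adjusted p = 0.172). DUSP6 was at 50.6 and 46.9 TPM against 32.4 and 39.9 TPM (0.43, adjusted p = 0.624). In each the IWP2 libraries already lay above the untreated ones at day 4, but the difference between the days was not called (adjusted p = 0.237, 0.408 and 0.251). SPRY1, which was not called on either day, had a called difference of 1.26 ± 0.22 (adjusted p = 0.0085), from 76.6 and 71.8 TPM against 95.3 and 107 TPM at day 4. JAG1 fell at day 4 (17.3 and 9.91 TPM against 53 and 50.4 TPM, -1.90, adjusted p = 2.1e-05) and its difference between the days was not called (1.06 ± 0.29, adjusted p = 0.128).

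Cultures with CT at 0.4 µM, the lowest dose of the WNT activator, share the untreated libraries with the IWP2 comparison, so both sets of values are given side by side without a test between them. CT at 0.4 µM called 1701 genes against untreated at day 8 (6.03%; 1001 higher, or 3.55%, and 700 lower, or 2.48%). WLS was at 1535 and 1149 TPM with CT (5.95 ± 0.28, adjusted p = 4.4e-13), against -2.14 with IWP2. FGFR2 was at 462 and 394 TPM (5.4 ± 0.21, adjusted p = 1.5e-14, against -2.00), OTX1 at 229 and 239 TPM (4.23 ± 0.26, adjusted p = 4.3e-11, against -2.56), and NR2F1 at 315 and 366 TPM (1.75 ± 0.25, adjusted p = 1.5e-05, against -1.88). SIX3 was at 0.986 and 0.528 TPM with CT (-4.92 ± 0.20, adjusted p = 2.6e-14, against 1.28) and FGF8 at 1.02 and 2.02 TPM (-4.54 ± 0.27, adjusted p = 1.7e-11, against 1.48). For these 6 genes the mean of the untreated libraries lay between those of the IWP2 and CT libraries. They are examples, and the order was not counted over all called genes. HES1 had higher means under both treatments (45.1 TPM with IWP2, 9.57 TPM untreated, 17.2 TPM with CT), as did ZIC5 (22.5, 9.94 and 47.3 TPM). DBX1 (0.716, 5.36 and 2.73 TPM), POU3F2 and PLAGL1 had their highest mean of these groups in the untreated libraries.

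FEZF2 and DMRTA1 fell under both treatments. FEZF2 was at 1.7 and 5.06 TPM with CT at 0.4 µM (-3.16 ± 0.36, adjusted p = 6.5e-07) and DMRTA1 at 2.36 and 5.79 TPM (-2.59 ± 0.25, adjusted p = 5.2e-08). The untreated libraries had the highest mean of both genes among all 9 conditions of day 8. EMX2 was lower with IWP2 but was at 8.05 and 15.6 TPM with CT at 0.4 µM and not called there (0.18 ± 0.24, adjusted p = 0.727).

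AXIN2 and WNT8B, which were not called with IWP2, rose with CT at 0.4 µM. AXIN2 was at 4.12 ± 0.24 with CT at 0.4 µM (adjusted p = 1.5e-11) against -0.53 ± 0.24 with IWP2, and WNT8B at 3.67 ± 0.27 (adjusted p = 9.6e-10) against -0.72 ± 0.27. LEF1 was at 0.59 ± 0.15 (adjusted p = 0.00857), under the fold threshold. Across IWP2, untreated and the CT doses without retinoic acid, FGF8, DUSP6 and HES1 were high at both ends. FGF8 was at a mean of 160 TPM with IWP2, 1.52 TPM with CT at 0.4 µM and 395 TPM with CT at 4.0 µM. DUSP6, which was also at 57.1 TPM with CT at 0.8 µM, was at 43.5, 10.6 and 190 TPM and HES1 at 45.1, 17.2 and 39.3 TPM in the same 3 conditions. With retinoic acid added to CT at 4.0 µM, the means were 0.872 TPM for FGF8, 8.19 TPM for DUSP6 and 3.1 TPM for HES1. SIX3 was not high at both ends: its mean was 127 TPM with IWP2, 52.1 TPM without and under 1 TPM in every CT condition.

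**Figure D4:**
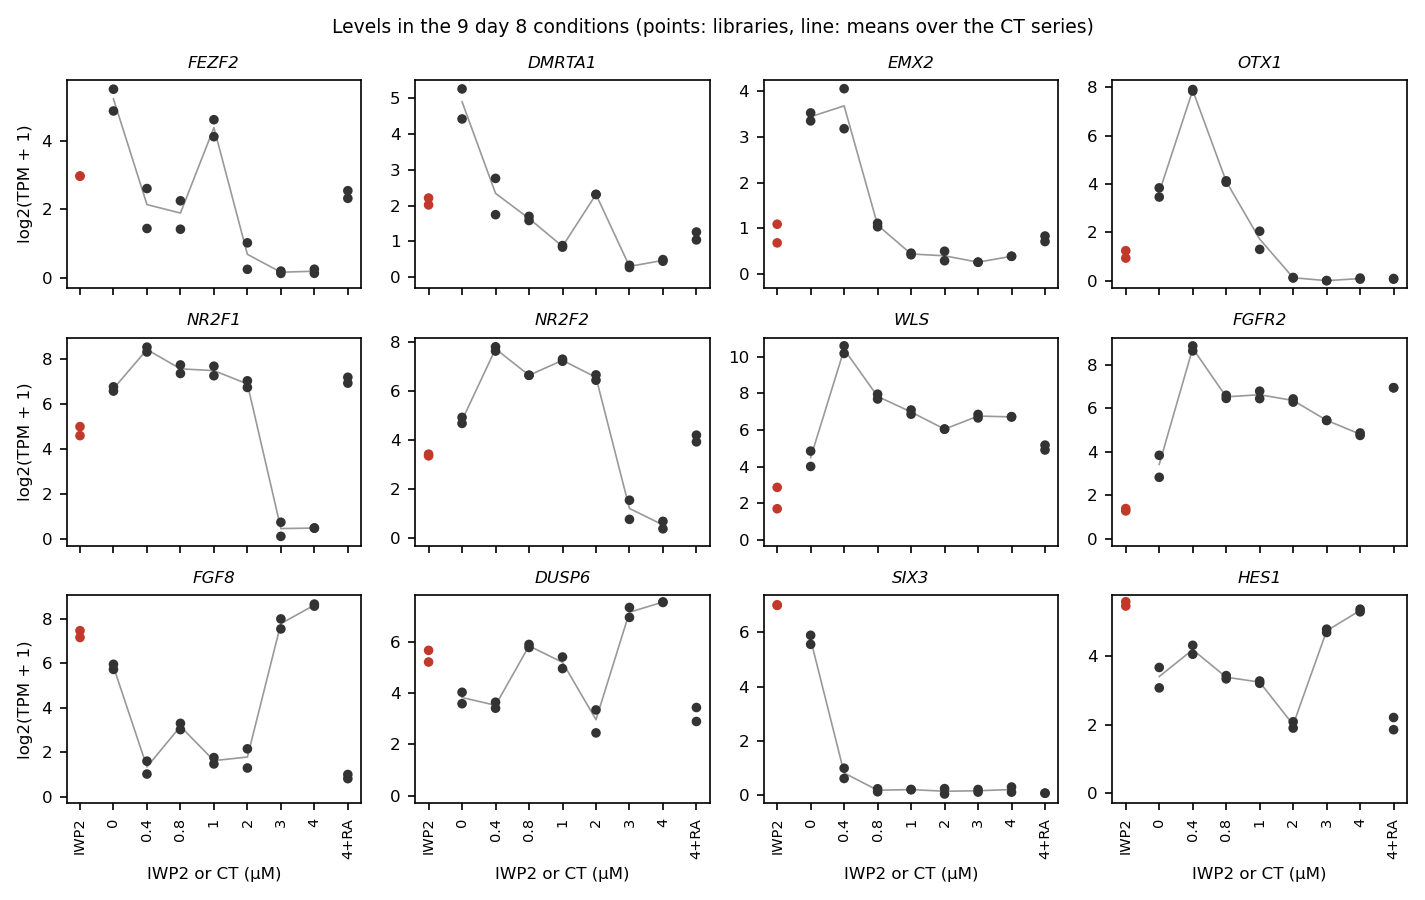
Levels of 12 genes in the 9 conditions of day 8 as log2(TPM + 1), with 1 point per library, IWP2 in red at the left and a line through the means of the untreated and CT groups (dose in µM; 4+RA is CT at 4.0 µM with retinoic acid). FEZF2 and DMRTA1 peak in untreated cultures, and OTX1, NR2F1, NR2F2, WLS and FGFR2 peak at 0.4 µM CT. FGF8, DUSP6 and HES1 are high with IWP2 and again at 3.0 and 4.0 µM CT without retinoic acid.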

How the data were processed

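Poly(A) RNA was sequenced as read pairs, and which of 2 instrument types served a given library is not stated. Per the submitters' processing notes, CASAVA 1.7 and Salmon 0.8.2 were used with genome hg38, without further settings. The authors deposited TPM per gene, 1 column per library. All genes that reached 1 TPM in 2 or more of 38 libraries were fitted with limma 3.58.1 (R 4.3.3) on log2(TPM + 1) with 19 group means and an intensity-trended prior, and p-values were adjusted over 28221 genes. The method was tested on simulated data. Gene positions are from GENCODE 29, and promoters from RefSeq. The genes named are the 5 markers, SOX21 and WNT8B, the 12 largest protein-coding calls each way, the called and the 2 most abundant uncalled members of 31 lists, and the 6 largest interaction calls each way; some that this rule names are not reported here, and others are said to be named after their values were seen. The 12 largest were taken among calls whose IWP2 and untreated libraries did not overlap, which held for every call. The genes and lists were chosen with earlier results of these data known. Alternatives were other pseudocounts (0.1, 0.5), filters (none, 5 TPM), TMM scaling, protein-coding genes only, a replicate block, each library left out and the compared libraries alone. Replicate numbers were not used to pair the samples in the main fit (deviation correlation 0.0261 at day 8). That value does not exclude a pairing.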

Additional observations from a re-analysis of the deposited data

Results flagged for a closer look

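The IWP2 effect differed between day 8 and day 4, by the interaction term of the limma fit with adjusted p below 0.05 and a difference of at least 1 in log2, for the following named genes. The value was higher at day 8 for PAX8 (a difference of 3.49), HES1 (2.29), CCDC62 (1.86), ADAMTS19 (1.82), PKD1L1 (1.76), S100B (1.74), CDH20 (1.69), FGFBP3 (1.64), HMGCS1 (1.52), SPRY1 (1.26), FDFT1 (1.11) and SP8 (1.07). It was lower at day 8 for EMX2 (-2.26), NOS2 (-1.88), DMRTA1 (-1.68), FAM167B (-1.60), FGFR2 (-1.53), PLAGL1 (-1.42), ARMCX2 (-1.13) and ARMCX6 (-1.08). For DMRTA1 the difference rests on the log2(TPM + 1) scale, since its day 4 means were 0.132 and 1.35 TPM and its plain ratio did not grow.

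Of these, ADAMTS19, an extracellular metalloprotease gene, rose at day 8, from 2.07 and 2.88 TPM to 6.02 and 7.41 TPM (1.15 ± 0.22, adjusted p = 0.00741 in limma), a call lost without untreated replicate 1 (0.99) or IWP2 replicate 2 (1.02, adjusted p = 0.0979). S100B, a calcium-binding protein, was at 0.974 and 1.79 TPM against 0.438 and 0.113 TPM at day 8 and was not called (0.89 ± 0.27, adjusted p = 0.155). FAM167B rose at day 4 (13.7 and 13 TPM against 4.66 and 6.23 TPM, adjusted p = 0.0117) and was at -0.44 ± 0.22 at day 8 (adjusted p = 0.49). SP8 fell at day 4 (31.6 and 31.4 TPM against 66.7 and 66.9 TPM, -1.06, adjusted p = 5.6e-04). The cholesterol enzymes HMGCS1 and FDFT1 were lower with IWP2 at day 4 (-0.97 and -0.72) and higher at day 8, without passing the fold threshold on either day.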

How the results depend on the processing

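The day 8 count of 120 called genes was 79 with a pseudocount of 0.1, 78 with protein-coding genes only, 81 with a filter at 5 TPM and 97 with TMM scaling (39.2% of them higher, against 45.8%), and it ranged from 136 to 194 with each library left out, the highest without untreated replicate 2. Leaving out a library also moved the share of higher calls, from 24.8% to 70.1%. Every fit with a day 8 library left out also lost many of the 120 reported calls, so its larger count did not add to a fixed set. Calls at day 4 and for the difference between the days were likewise lost when a library was left out. The filter at 5 TPM gave 52 calls at day 4 (80 as reported) and 38 for the difference between the days (65 as reported). With each library left out these ranged from 108 to 128 and from 59 to 100. The CT 0.4 µM count was 253 with only its 4 libraries and ranged from 1538 to 1947 with each library left out.

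Of 47 named called genes, 20 kept the call under every alternative other than the 4-library fit, among them EMX2, OTX1, DMRTA1, WLS, FGFR2, NR2F2, POU3F2, PAX8 and HES1, and 27 lost it in at least 1; none changed sign. No sign could change on leaving out 1 library, since the IWP2 and untreated libraries of every called gene did not overlap. A pseudocount of 0.1 ended the call of 16 of the 47, including SIX3, NR2F1, SIX3-AS1, CDH20, VIPR2, CCDC62 and FEZF2 (adjusted p = 0.0955 in limma). TMM scaling ended 5, including SIX6 (0.98), DLX5 (0.93) and GREM1 (0.95). With 1 library left out, the day 8 sign of uncalled genes near 0 turned for CCND1 (-0.25 to 0.02), COL1A1 (0.00 to 0.42), VIM (-0.12 to 0.03), GAS5 (-0.07 to 0.04), SOX2 (-0.06 to 0.04), PORCN (-0.20 to 0.05), PTCH1 (-0.41 to 0.11), ZIC1 (-0.08 to 0.90), FGFR1 (-0.08 to 0.20) and SP8 (-0.09 to 0.10). With TMM scaling it turned for LIN28A (-0.03) and SP8 (-0.04). The cause was not tested.

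With the replicate number as a block, 119 genes were called at day 8, of which 116 were among the 120, 84 at day 4, 63 for the difference between the days and 1702 for CT. Deviations of same-numbered libraries from their group means correlated between -0.0427 and 0.0372 over the group pairs checked. These values pool all tested genes, so they cannot exclude that same-numbered libraries belong together. TPM without read counts and 2 libraries per group limit the precision.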
